A study of Mus musculus with 12 samples.

Results

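The NRF2 pathway genes analyzed here were Nfe2l2, Keap1, Hmox1, Nqo1, Gclc, Gclm, Txnrd1, Srxn1, Slc7a11 and Gsr, chosen by symbol from an RNA-seq table of the aged mouse hippocampus. All 10 were among its 27833 genes, and all 10 passed the filter of a mean FPKM of at least 0.5 that left 13796 genes for testing. FPKM divides a gene's fragments by its length in kilobases and by the total of the library. Every animal was a male C57BL/6J mouse aged 20 months, wild type by the labels, that was gavaged for 14 days. CON mice received normal saline (3 libraries), PQQ-L mice received pyrroloquinoline quinone (PQQ) at 5 mg/kg/day (5 libraries) and PQQ-H mice received it at 10 mg/kg/day (4 libraries), always in saline. PQQ is a redox-active quinone taken as a supplement. The study assigned 6 mice to each group, and the sources used here do not state how the mice correspond to the 12 libraries, so the p-values measure the spread between libraries. No young animals were included.

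NRF2, the product of Nfe2l2, is a transcription factor held at a low level by KEAP1, an adaptor that presents it to the Cullin 3 ubiquitin ligase for destruction. Oxidants and electrophiles modify cysteines of KEAP1, after which NRF2 accumulates, pairs with small MAF proteins and binds antioxidant response elements near genes for glutathione synthesis, thioredoxin recycling, quinone reduction and heme breakdown. In the brain the pathway is known best from astrocytes, and it acts largely through the stability of the NRF2 protein, which RNA-seq does not measure.

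The letters TGACNNNGC, the core of the antioxidant response element, were searched on both strands of the RefSeq promoter windows of the GRCm38.p6 build, which run from 250 bases before to 50 bases after each start. Windows were given for 7 of the 10 genes (not for Hmox1, Gclc and Gsr), and 4 of these 7 held a match in at least 1 window. The match is shown in capitals with 10 bases on each side, 5′ to 3′ along the gene's strand, as an example of the letters through which NRF2 is known to act. Counted by window, 4 of the 9 windows of these genes held it (44.4%), beside 12.4% of all 32851 windows.
Nfe2l2 (chr2:75704885-75704913, minus strand): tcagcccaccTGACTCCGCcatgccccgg
Srxn1 (chr2:152105542-152105570, plus strand): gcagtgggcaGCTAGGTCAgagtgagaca
Gclm (chr3:122245413-122245441, plus strand): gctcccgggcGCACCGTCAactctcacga
Txnrd1 (chr10:82859104-82859132, plus strand): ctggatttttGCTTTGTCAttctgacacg

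The match of Nfe2l2 lay 240 bases before the start and read along the gene. The matches of Gclm (134 bases before the start), Txnrd1 (92 bases before, in 1 of its 3 windows) and Srxn1 (29 bases after) read on the opposite strand. The windows of Keap1, Slc7a11 and Nqo1 did not hold these letters, which says nothing about elements outside them. Nqo1 is the gene on which the comparisons below turn, and the 250 bases before its start (chr8:107403206-107403455, minus strand) are shown whole, with no capitals since no match was found.
Nqo1: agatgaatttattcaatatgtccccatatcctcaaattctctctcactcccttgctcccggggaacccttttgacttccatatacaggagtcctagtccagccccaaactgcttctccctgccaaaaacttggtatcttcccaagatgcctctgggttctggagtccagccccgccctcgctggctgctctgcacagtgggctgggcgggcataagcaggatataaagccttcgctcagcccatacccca

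Library totals on genes, recovered from the FPKM, ran from 29654553 to 38179496 reads, of which each of the 10 genes held 128 to 4170. Markers of neurons, astrocytes and microglia were present in every library. In 4 libraries (CON 1, CON 3, PQQ-H 1 and PQQ-H 2) the summed FPKM of 8 markers of striatal neurons was 1291 to 3222, against 34.8 to 172 in the other 8, and the summed FPKM of 8 markers of hippocampal neurons was 33.7 to 95.9 against 151 to 408. These 4 libraries go against the label hippocampus in that respect and are called striatum-high below. All 5 PQQ-L libraries were striatum-low. In addition, the summed FPKM of 20 choroid plexus markers was 1809 to 6018 in CON, 104 to 203 in PQQ-L and 79.0 to 96.9 in PQQ-H, and 18 of the 20 markers were higher in every CON library than in any PQQ library. Choroid plexus content and treatment cannot be told apart in these libraries.

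Over all 12 libraries Srxn1 had the highest level, with a mean of 26.4 ± 3.15 FPKM (SD, n = 12). It was followed by Keap1 (18.8 ± 1.22 FPKM), Txnrd1 (17.5 ± 1.81 FPKM), Gclc (15.9 ± 0.803 FPKM), Gclm (13.7 ± 1.36 FPKM) and Gsr (12.0 ± 2.12 FPKM). Lower levels were measured for Nfe2l2 (5.21 ± 1.12 FPKM), Hmox1 (3.62 ± 0.590 FPKM), Slc7a11 (3.19 ± 1.04 FPKM) and Nqo1 (1.98 ± 0.890 FPKM). The order was the same in 12 of 12 libraries for the neighbors Srxn1 and Keap1 and for Gsr and Nfe2l2, which were the clearest steps. Hmox1 was above Slc7a11 in only 8 of 12 libraries, and the other neighbors kept their order in 10 or 11 of 12, with means that differed by less than the summed SDs. Nqo1 varied most between libraries (coefficient of variation 44.9%) and Gclc least (5.05%).

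**Figure D1:**
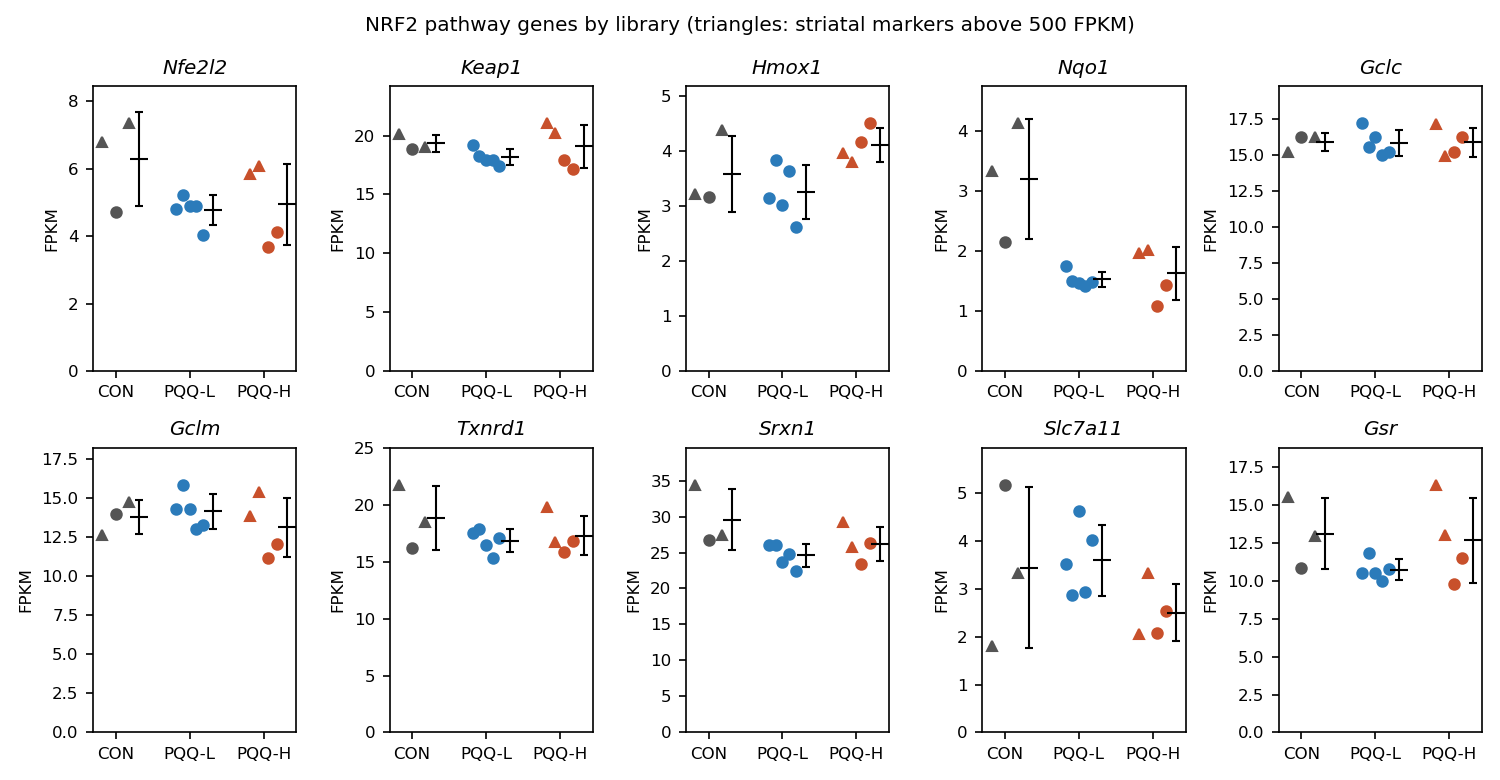
FPKM (vertical axes, from 0) of the 10 genes in each CON, PQQ-L and PQQ-H library, with the mean and SD of each group as a black bar; triangles mark the 4 striatum-high libraries and circles the other 8. Every CON library lies above every PQQ library for Nqo1, while the ranges of the groups overlap for Gclc and Gclm.

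Among the regulators, Nfe2l2 was lower on average at both doses, but the libraries overlapped. It was at 6.80, 4.70 and 7.35 FPKM in CON 1 to 3, at 4.80, 5.23, 4.90, 4.89 and 4.04 in PQQ-L 1 to 5 and at 5.84, 6.09, 3.69 and 4.13 in PQQ-H 1 to 4. CON 1 and CON 3 were the highest of the 12, and CON 2 lay within the range of PQQ-L. The log2FC was -0.37 in PQQ-L vs. CON (SE 0.187, adjusted p = 0.256 in limma) and -0.35 in PQQ-H vs. CON (SE 0.196, adjusted p = 0.626), so neither difference passed the test. The 4 striatum-high libraries held the 4 highest values of Nfe2l2, from 5.84 to 7.35 FPKM, while the 8 striatum-low libraries spanned 3.69 to 5.23. Among the 8 striatum-low libraries alone, the log2FC of PQQ-L vs. CON was 0.016 and that of PQQ-H vs. CON was -0.26, with CON 2 as the lone control, which is assumed to vary like the other groups. The sets of 4 and 8 libraries were defined from their striatal markers after the data were seen, and 24.9% of all 13796 genes likewise did not overlap between them.

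Keap1, the repressor of NRF2, was at 20.1, 18.8 and 19.0 FPKM in CON, at 19.2, 18.3, 17.9, 17.9 and 17.4 in PQQ-L and at 21.1, 20.2, 17.9 and 17.1 in PQQ-H. The groups overlapped, and the highest and the lowest of the 12 values both came from PQQ-H. The log2FC was -0.091 for PQQ-L vs. CON and -0.023 for PQQ-H vs. CON, with 95% intervals of -0.26 to 0.076 and -0.20 to 0.15. The ratio of the FPKM of Keap1 to that of Nfe2l2 had a median of 2.96 in CON, 3.67 in PQQ-L and 3.88 in PQQ-H, and the libraries overlapped here too (2.59 to 4.00, 3.49 to 4.31 and 3.32 to 4.86). The ratio was 2.59 to 3.60 in the striatum-high libraries and 3.49 to 4.86 in the striatum-low ones. The highest CON ratio was that of CON 2, the only striatum-low CON library. The part of the striatal split in the group medians was not tested.

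Nqo1 encodes NAD(P)H quinone dehydrogenase 1, which reduces quinones and is widely used as a readout of NRF2 activity. It was at 3.34, 2.14 and 4.13 FPKM in CON 1 to 3, at 1.75, 1.51, 1.47, 1.42 and 1.49 in PQQ-L 1 to 5 and at 1.97, 2.02, 1.08 and 1.44 in PQQ-H 1 to 4. All 9 PQQ libraries lay below the lowest CON library, although CON 2 was only slightly above PQQ-H 2. The means were 3.206 ± 1.002 FPKM in CON (SD, n = 3), 1.53 ± 0.129 in PQQ-L (n = 5) and 1.63 ± 0.447 in PQQ-H (n = 4).

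The log2FC of Nqo1 was -0.98 in PQQ-L vs. CON (SE 0.226, adjusted p = 0.0931 in limma), that is a 1.97-fold lower level, and -0.93 in PQQ-H vs. CON (SE 0.236, adjusted p = 0.120), that is 1.90-fold lower. Neither passed the thresholds of a |log2FC| above 1 and an adjusted p below 0.05. Two-sided exact permutation tests of the log2 values gave p = 0.0179 in PQQ-L vs. CON (56 arrangements) and p = 0.0286 for PQQ-H (35 arrangements), the smallest that these group sizes allow, unadjusted for the number of genes. Between the doses the log2FC was 0.050 with a 95% interval of -0.40 to 0.50, which included 0.

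CON 2 decided the call. Without it, Nqo1 was past both thresholds at the low dose (log2FC -1.23, adjusted p = 0.0166 in limma) and at the high dose (log2FC -1.18, adjusted p = 0.0278), and it was the only one of the 10 to do so. Without CON 2, however, 866 of all 13796 genes (6.28%) were past both thresholds at the low dose, in place of 65, and 138 at the high dose, in place of 113. CON 2 was also the CON library with the lowest choroid plexus total (1809 FPKM, against 4105 in CON 1 and 6018 in CON 3) and the only striatum-low one. Across the 3 CON libraries the order of Nqo1 was the order of that total, but across the PQQ libraries it was not. PQQ-H 2 had the highest Nqo1 of the PQQ libraries (2.02 FPKM) at a choroid plexus total of 96.95 FPKM. PQQ-L 4 had their highest total (203 FPKM) and 1.42 FPKM of Nqo1. The part of choroid plexus RNA in the lower Nqo1 was not tested. In bulk tissue, fewer cells of a type and less RNA per cell cannot be told apart.

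Since no PQQ library reached the lowest CON value, any subset that holds both groups has Nqo1 lower in PQQ, and the subsets show only the size of the difference. Among the striatum-low libraries, CON 2 was at 2.14 FPKM and the 5 PQQ-L and 2 PQQ-H libraries were at 1.08 to 1.75. Among the striatum-high libraries, CON was at 3.34 and 4.13 FPKM and PQQ-H at 1.97 and 2.02. A covariate for the log2 striatal total was added after seeing the data, and choroid plexus content was not in that fit. The share of all genes under an adjusted p of 0.05 in limma was then 1.99% at the high dose, in place of 1.09%. With this covariate the log2FC of Nqo1 was -0.62 in PQQ-L vs. CON (adjusted p = 0.166 in limma). In PQQ-H vs. CON it was -0.82 (adjusted p = 0.0073 in limma), so neither passed the |log2FC| threshold of 1. Among the 8 striatum-low libraries it was -0.47 in PQQ-L vs. CON (adjusted p = 0.978 in limma) and -0.73 in PQQ-H vs. CON (adjusted p = 0.363), with CON 2 as the lone control. The library names begin with L or R, a letter that the sources do not explain. With L, CON was at 2.14 and 4.13 FPKM and the 5 PQQ libraries at 1.08 to 2.02, and with R, CON 1 alone was at 3.34 FPKM and the 4 PQQ libraries at 1.44 to 1.75.

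**Figure D2:**
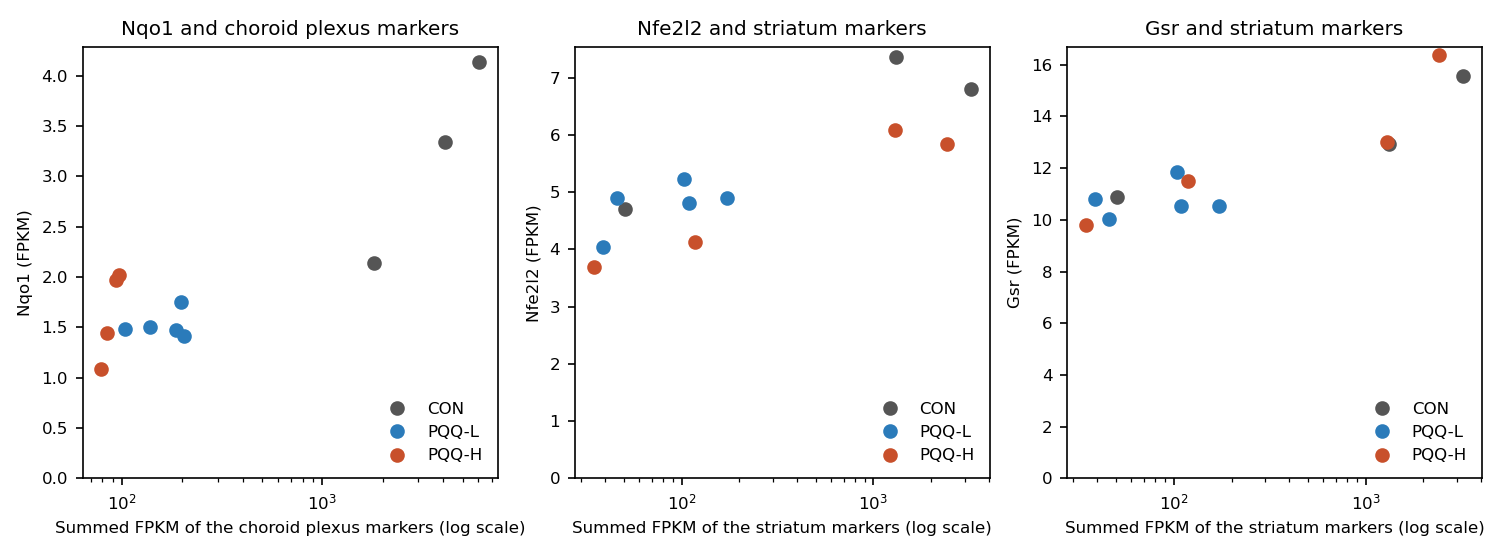
Nqo1 (FPKM) against the summed FPKM of 20 choroid plexus markers, and Nfe2l2 and Gsr (FPKM) against the summed FPKM of 8 striatal markers, 1 point per library, with the horizontal axes on a log scale. The 3 CON libraries stand at 1809 FPKM of choroid plexus markers and above, and the 4 libraries at 1291 FPKM of striatal markers and above hold the highest Nfe2l2 and Gsr values.

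Hmox1, which encodes heme oxygenase 1, was at 3.22, 3.17 and 4.38 FPKM in CON, at 3.14, 3.84, 3.01, 3.64 and 2.62 in PQQ-L and at 3.97, 3.80, 4.16 and 4.51 in PQQ-H. PQQ-H held 3 of the 4 highest values, and it overlapped with PQQ-L by 1 library (3.80 against 3.84). Hmox1 was the only one of the 10 with an unadjusted p below 0.05 between the doses, with a log2FC of 0.34 in PQQ-H vs. PQQ-L (95% interval 0.052 to 0.63, adjusted p = 0.580 in limma) and an exact permutation p of 0.0397. Against CON, the log2FC was -0.13 for PQQ-L and 0.20 for PQQ-H, and both intervals included 0. The 12 values rest on 141 to 243 reads each, so the counting error alone is 6.42% to 8.42% of a value.

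Gclc and Gclm encode the enzyme of the rate-limiting step of glutathione synthesis, and over all 12 libraries their groups overlapped in every comparison. Gclc, the catalytic subunit of glutamate-cysteine ligase, was at 15.2 to 16.3 FPKM in CON, 15.0 to 17.2 in PQQ-L and 14.9 to 17.2 in PQQ-H. Its log2FC was -0.0056 for PQQ-L vs. CON and -0.0037 for PQQ-H vs. CON, with 95% intervals of -0.16 to 0.15 and -0.17 to 0.16. Gclm, the modifier subunit of the same enzyme, was at 12.6 to 14.8 FPKM in CON, 13.1 to 15.9 in PQQ-L and 11.2 to 15.4 in PQQ-H. Its log2FC was 0.037 in PQQ-L vs. CON, -0.079 in PQQ-H vs. CON and -0.12 between the doses, and each 95% interval included 0. Among the striatum-low libraries, Gclm was at 13.1 to 15.9 FPKM in PQQ-L and 11.2 to 12.1 in the 2 PQQ-H libraries (log2FC -0.28 in PQQ-H vs. PQQ-L). The FPKM of Gclc and Gclm stood in a ratio of 0.969 to 1.36 over the 12 libraries, with a median of 1.16 in CON, 1.15 in PQQ-L and 1.29 in PQQ-H.

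Slc7a11, the cystine carrier that supplies cysteine for glutathione, was at 1.81, 5.17 and 3.34 FPKM in CON, at 3.51, 2.87, 4.62, 2.92 and 4.02 in PQQ-L and at 2.06, 3.34, 2.08 and 2.54 in PQQ-H. CON held both the lowest and the highest value. Between the doses the log2FC was -0.51 (95% interval -1.09 to 0.076, adjusted p = 0.580 in limma), with an exact permutation p of 0.0556. Without CON 1, the library with the lowest value, the log2FC in PQQ-L vs. CON was -0.23 in place of 0.16, and that of PQQ-H vs. CON was -0.74 (adjusted p = 0.386 in limma) in place of -0.35 (adjusted p = 0.770). Without CON 2, the library with the highest value, the latter was -0.0034, and among the striatum-low libraries it was -1.14 (adjusted p = 0.304).

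Gsr, glutathione reductase, was at 15.6, 10.9 and 12.9 FPKM in CON, at 10.5, 11.9, 10.5, 10.0 and 10.8 in PQQ-L and at 16.4, 13.03, 9.81 and 11.5 in PQQ-H. As for Nfe2l2, the 4 striatum-high libraries were the 4 highest (12.9 to 16.4 FPKM, against 9.81 to 11.9 in the striatum-low libraries), and they belonged to CON and PQQ-H. The log2FC was -0.27 in PQQ-L vs. CON (adjusted p = 0.279 in limma) and -0.060 in PQQ-H vs. CON (adjusted p = 0.923). Among the striatum-low libraries alone it was -0.019 in PQQ-L vs. CON, and the part of striatal RNA in the higher values was not tested.

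Srxn1 encodes sulfiredoxin 1, which restores overoxidized peroxiredoxins. It was at 34.4, 26.8 and 27.4 FPKM in CON, at 26.0, 26.1, 23.7, 24.8 and 22.4 in PQQ-L and at 29.2, 25.8, 23.4 and 26.4 in PQQ-H. PQQ-L lay below CON without overlap (26.1 against 26.8 FPKM at the nearest libraries), while PQQ-H overlapped with both groups. The log2FC in PQQ-L vs. CON was -0.26 (SE 0.0997, adjusted p = 0.233 in limma), a 1.20-fold lower level, and the exact permutation p was 0.0179. It was -0.14 without CON 1 (adjusted p = 0.863 in limma), -0.14 with the striatal covariate (adjusted p = 0.762) and -0.13 among the striatum-low libraries (adjusted p = 0.978), and Srxn1 was then no longer below an unadjusted p of 0.05. In PQQ-H vs. CON the log2FC was -0.17 (95% interval -0.40 to 0.059), and the doses differed by 0.088 with an interval that included 0.

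Txnrd1, cytosolic thioredoxin reductase, was at 21.8, 16.2 and 18.5 FPKM in CON, at 15.3 to 17.9 in PQQ-L and at 15.9 to 19.8 in PQQ-H. CON 1 was the highest for Txnrd1 as it was for Srxn1, and CON 2 fell within PQQ-L. The log2FC was -0.15 in PQQ-L vs. CON (adjusted p = 0.350 in limma) and -0.12 in PQQ-H vs. CON (adjusted p = 0.789).

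Counted over the 10 genes, 0 passed both thresholds by limma at the low dose against CON, where 0.471% of all 13796 genes did, at the high dose, where 0.819% did, or between the doses, where 0% did. At an unadjusted p below 0.05, 2 of the 10 were called in PQQ-L vs. CON (Nqo1 and Srxn1, both lower), against 20.5% of all genes in either direction and 11.6% lower. In PQQ-H vs. CON it was 1 of 10 (Nqo1, lower), against 9.73% of all genes and 7.88% lower, and between the doses 1 of 10 (Hmox1, higher in PQQ-H), against 8.15%. These counts are close to the share among all genes. The FPKM did not overlap for 2 of 10 in PQQ-L vs. CON (10.6% of all genes), for 1 of 10 in PQQ-H vs. CON (7.08%) and for 0 of 10 between the doses (4.76%).

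The median log2FC of the 10 was -0.14 for PQQ-L and -0.097 for PQQ-H, both against CON, and 0.042 between the doses, beside -0.030, -0.027 and -0.022 over all genes. With median-of-ratios scaling, Gclc turned positive in both comparisons with CON (log2FC 0.035 and 0.064), and Keap1 and Gsr turned positive in PQQ-H vs. CON (0.045 and 0.0080), so no direction is given for them. The 2 comparisons with CON share its 3 libraries.

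**Figure D3:**
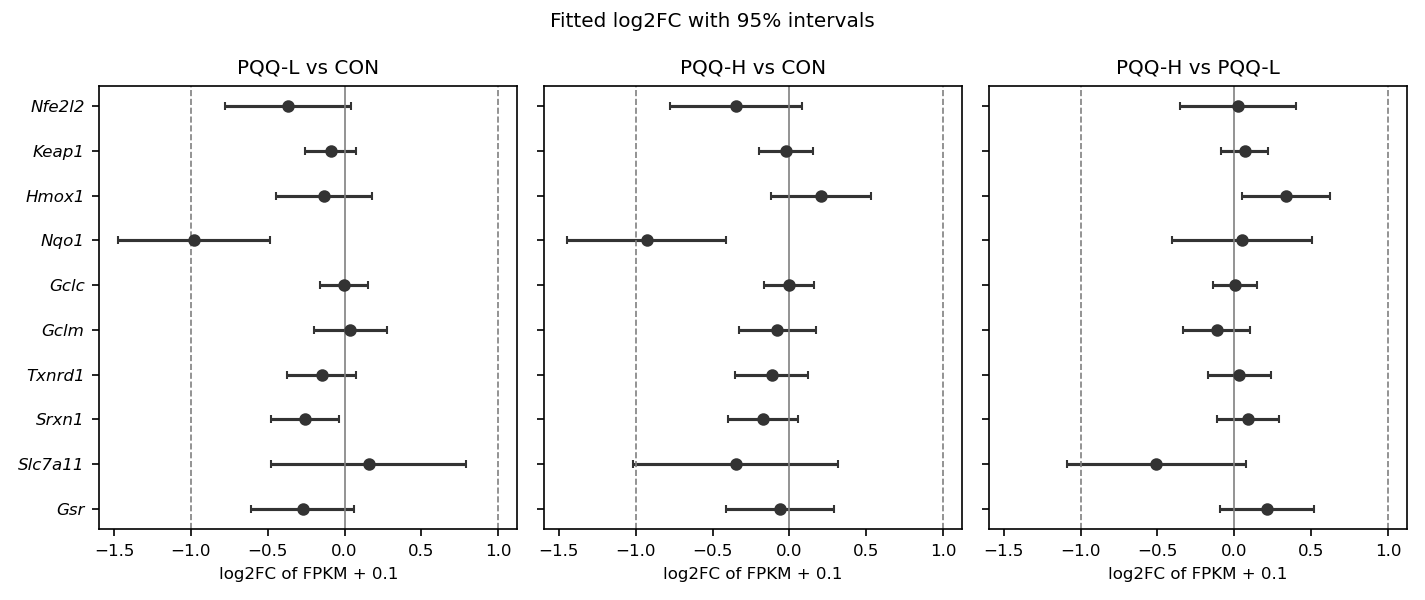
Log2FC of FPKM + 0.1 (horizontal axis) of the 10 genes with 95% intervals from the limma fit, in a panel for each comparison, with dashed lines at a log2FC of -1 and 1. Nqo1 lies at -0.98 and -0.93 against CON, and the other 9 genes lie within 0.4 of 0 against CON.

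To see whether the genes varied together, the log2 values of each were compared with those of Nfe2l2 over the 12 libraries. Pearson's r was highest for Nqo1 (0.88, Spearman's rho 0.72), followed by Gsr (0.75 and 0.72), Keap1 (0.72 and 0.70), Srxn1 (0.71 and 0.62), Txnrd1 (0.67 and 0.60) and Gclm (0.54 and 0.53). It was 0.18 for Hmox1, 0.076 for Gclc and -0.17 for Slc7a11. The libraries fall into the striatum-high and striatum-low sets, which also differ in Nfe2l2, so these values describe that split as well, and none was tested. Within the 8 striatum-low libraries r was 0.88 for Gclm, 0.54 for Nqo1, 0.51 for Keap1, 0.50 for Srxn1, 0.43 for Slc7a11, 0.34 for Gsr, 0.29 for Gclc, 0.26 for Txnrd1 and -0.21 for Hmox1. With CON 1 and CON 3 left out, the libraries farthest from the median of Nfe2l2, it was 0.72 for Nqo1 and 0.80 for Gclm.

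Among all 13796 genes, the 3 whose log2 values were most like those of Nfe2l2 were Vtn (r = 0.97), Niban2 (0.97) and Id1 (0.97). For Keap1 they were Ky (0.94), Limch1 (0.93) and Igsf11 (0.92). For Srxn1, the member with the highest level, they were P2rx4 (0.97), Slu7 (0.96) and Tti2 (0.96), and for Nqo1, the member with the lowest, Ctsl (0.98), Tapbp (0.97) and Pomgnt1 (0.97). None of the 12 was another of the 10 genes. Within the 8 striatum-low libraries the r of these 12 pairs was 0.79 to 0.95. The partners were picked as the highest of all genes over 12 libraries that include these 8. High values were therefore partly set by the choice, and they describe the pairs only.

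Other genes of the pathway were taken from lists of 12 further regulators and 25 further targets of NRF2, of which Bach2 and Osgin1 did not reach the expression filter. The lists were chosen with earlier results of these data known, so counts over them are descriptions and no test of the pathway. Of the 35 tested, 0 had an adjusted p below 0.05 in limma in any comparison. Of all genes, 0.587% did in PQQ-L vs. CON, 1.09% in PQQ-H vs. CON and 0% between the doses. At an unadjusted p below 0.05, 13 of the 35 were lower and 0 higher in PQQ-L vs. CON. In PQQ-H vs. CON 6 were lower and 0 higher, and 0 differed between the doses. Among all genes tested, 11.6% were lower in PQQ-L vs. CON and 7.88% in the high-dose comparison by the same rule. Higher by this rule were 1231 of the 13796 genes at the low dose but only 255 at the high dose. At the high dose, 0 higher of 35 is therefore close to the share among all genes. Between the doses, 8.15% of all genes differed by this rule in either direction. Of the 24 targets, 12 were lower in PQQ-L and 6 in PQQ-H, and of the 11 regulators, 1 in PQQ-L (Nfe2l3) and 0 in PQQ-H. The median log2FC was -0.32 over the targets and 0.059 over the regulators in PQQ-L vs. CON, and -0.20 and -0.020 in PQQ-H vs. CON. Over all genes it was -0.030 and -0.027. With median-of-ratios scaling, 25 of the 35 lay below 0 in PQQ-L vs. CON, in place of 27. In PQQ-H vs. CON it was 22, in place of 30. The median over all genes was then 0.011 and 0.040. The FPKM did not overlap with CON for 9 of the 35 at the low dose and 5 at the high dose, beside 10.6% and 7.08% of all genes.

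The counts of these further genes depended on single CON libraries, and the share of all genes that were lower moved with them. In PQQ-L vs. CON, 20 of the 35 were lower without CON 2 (21.4% of all genes), and 14 then reached an adjusted p below 0.05 in limma, as did 23.4% of all genes. The count was 5 without CON 1 (5.32% of all genes), 8 without CON 3 (7.27%) and 8 without PQQ-L 5 (8.18%). With the striatal covariate 5 were lower (5.31%), and among the striatum-low libraries 2 (3.06%). In PQQ-H vs. CON, 13 were lower without CON 2 (11.1% of all genes), 7 with the covariate (9.72%) and 1 among the striatum-low libraries (8.15%). The count at the high dose was 4 without CON 1 (6.77% of all genes) and 4 without CON 3 (6.04%). An adjusted p below 0.05 in limma was reached in PQQ-H vs. CON by 1 of the 35 without CON 2 (1.41% of all genes). With the covariate it was reached by 2 (1.99%).

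Ephx1, microsomal epoxide hydrolase, had the smallest p in PQQ-L vs. CON. It was at 27.6, 18.9 and 31.5 FPKM in CON, at 14.5 to 16.5 in PQQ-L and at 21.9, 18.1, 15.2 and 17.2 in PQQ-H. CON and PQQ-L did not overlap, CON and PQQ-H did. The log2FC was -0.70 in PQQ-L vs. CON (adjusted p = 0.0800 in limma) and -0.50 in PQQ-H vs. CON (adjusted p = 0.270).

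Txn1, the thioredoxin that Txnrd1 reduces, was at 72.2, 61.8 and 54.1 FPKM in CON, at 46.2 to 49.9 in PQQ-L and at 48.2 to 57.2 in PQQ-H, so that only PQQ-L was below every CON library. Its log2FC was -0.36 for PQQ-L vs. CON and -0.24 for PQQ-H vs. CON. Tkt, transketolase of the pentose phosphate pathway, was at 62.4, 51.3 and 58.1 FPKM in CON, at 42.4 to 50.6 in PQQ-L and at 41.0 to 49.1 in PQQ-H. It was below CON at both doses without overlap, with a log2FC of -0.29 in PQQ-L (adjusted p = 0.187 in limma) and -0.32 in PQQ-H (adjusted p = 0.194).

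Blvrb, biliverdin reductase B of heme breakdown, had the largest fold among the named genes. It was at 15.7, 7.97 and 14.0 FPKM in CON, 3.33 to 6.74 in PQQ-L and 3.58 to 11.6 in PQQ-H, and the log2FC was -1.26 in PQQ-L vs. CON (adjusted p = 0.170 in limma) and -0.78 in PQQ-H vs. CON. The highest values after CON 1 and CON 3 were those of PQQ-H 2 and PQQ-H 1, the other striatum-high libraries (11.6 and 9.005 FPKM). Abcc4, an export pump, and Nfe2l3, a relative of NRF2, had a log2FC of -0.53 and -0.79 in PQQ-L vs. CON, without overlap (1.10 to 1.47 FPKM against 1.52 to 2.02, and 0.908 to 1.94 against 2.10 to 3.91). In PQQ-H vs. CON it was -0.27 and -0.53, and the libraries overlapped. Abcc4 was at 1.68, 1.80, 1.25 and 1.28 FPKM in PQQ-H 1 to 4 and Nfe2l3 at 2.82, 2.24, 1.36 and 1.64. For both, the striatum-high PQQ-H 1 and PQQ-H 2 were the higher.

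In PQQ-H vs. CON the further genes at an unadjusted p below 0.05 were Slc3a2, Aox1 and Pir beside Tkt, Ephx1 and Txn1. Slc3a2, the heavy chain that partners Slc7a11 in cystine uptake, was at 11.8, 13.06 and 12.96 FPKM in CON and at 10.8, 11.3, 10.6 and 10.3 in PQQ-H, without overlap, with a log2FC of -0.23 (adjusted p = 0.201 in limma). Aox1, aldehyde oxidase 1, was at 1.31 to 1.57 FPKM in CON and 0.802 to 1.16 in PQQ-H (log2FC -0.53), and Pir, pirin, at 3.96 to 4.89 and 2.64 to 3.78 FPKM (log2FC -0.42). The summed choroid plexus markers were also lower in PQQ-H than in CON, and their part in these differences was not tested.

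**Figure D4:**
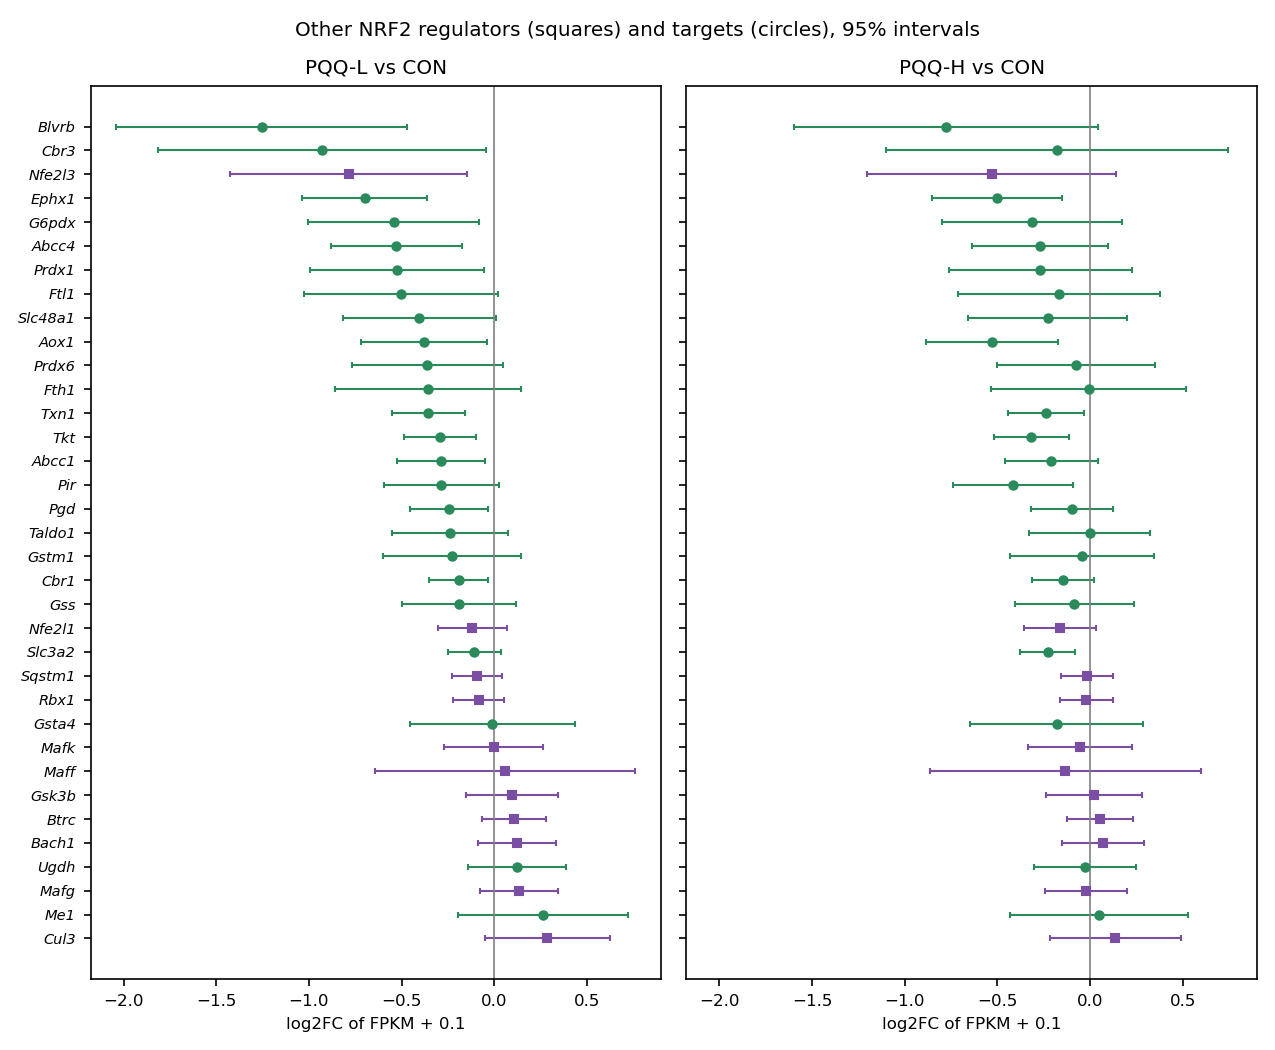
Log2FC of FPKM + 0.1 (horizontal axes) with 95% intervals for the 35 further NRF2 genes tested, at the low dose (left) and the high dose (right) against CON, squares for regulators and circles for targets. The targets lie mostly below 0, with a median of -0.32 for PQQ-L and -0.20 at the high dose. The regulators lie around 0, with medians of 0.059 and -0.020. The medians over all genes were -0.030 and -0.027.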

How the data were processed

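Hippocampal RNA of 12 libraries was analyzed. The authors used TRIzol for extraction, the VAHTS Universal V10 kit for the libraries and an Illumina NovaSeq instrument, then fastp for filtering, HISAT2 for mapping and HTSeq-count for counting. They deposited FPKM, 1 table of 27833 genes, and the notes name mm39. The annotation, the strandedness and the program versions are not given in the sources used here. The authors' DESeq2 thresholds (|log2FC| above 1, q below 0.05) were kept.

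Limma 3.58.1 in R 4.3.3 was run with trend on log2(FPKM + 0.1) in one fit of the 12 libraries, over the 13796 genes whose mean FPKM reached 0.5, with Benjamini-Hochberg adjustment. The fold changes are on that scale, which understates low genes. Exact permutation tests were two-sided on the same scale. Whole reads behind the FPKM were recovered for 100% of the 25563 genes above 0 in at least 2 libraries (tolerance 0.02 reads), and voom on them was an alternative. Intervals on reads cover counting error only. No 2 libraries of a group were duplicates (chi-square divided by its degrees of freedom was 17.4 or more in all 19 pairs). Limma was tested on simulated data of PQQ-H vs. CON in which 200 of 13796 genes were shifted by a log2 value of 3. Of these 197 were called, as were 6 unshifted genes. This shift is larger than the differences of the 10 genes, and calling at their sizes was not tested.

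The genes named were the 10 members, the 3 genes most like Nfe2l2, Keap1 and the members of highest and lowest level, and up to 6 further NRF2 genes of smallest p in each comparison with CON. Members and lists were chosen with earlier results of these data known. Marker totals sum the FPKM of each list. Python 3.11.15 with scipy 1.17.1 was used for the other steps. Alternatives used pseudocounts of 1 and 0.01, no filter beyond genes above 0, median-of-ratios scaling, a fit of the compared groups alone, a covariate for the letter L or R in the names, a replicate block, voom on recovered reads, and fits without each of the 12 libraries. A striatal covariate and the 8 striatum-low libraries alone were added after seeing the data, as were all alternatives for the further genes.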

Additional observations from a re-analysis of the deposited data

Results flagged for a closer look

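One value was flagged by Dixon's test among the 20 sets of values of 1 gene in PQQ-L or PQQ-H (CON, with 3 libraries, was not tested). PQQ-L 1 had 1.75 FPKM of Nqo1, above the other PQQ-L libraries at 1.42 to 1.51, with a gap of 0.725 of the group's range against a critical value of 0.71. Chance flags about 1 in 20 such sets. Without PQQ-L 1 the log2FC of Nqo1 in PQQ-L vs. CON was -1.03 in place of -0.98 (adjusted p = 0.155 in limma), so it did not decide the call.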

How the results depend on the processing

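No member passed both thresholds under any alternative in any comparison, except Nqo1 without CON 2, where 866 of 13796 genes passed at the low dose (65 with all libraries) and 138 at the high dose (113). Leaving out each of the 12 libraries gave 0 to 1 members past both thresholds at either dose against CON. At an unadjusted p below 0.05 it gave 1 to 5 members at the low dose (6.36% to 43.1% of all genes), 1 to 2 at the high dose (6.47% to 20.1%) and 0 to 2 between the doses (4.89% to 13.7%). Of 660 values of log2FC under the alternatives, 599 kept their direction and side of the thresholds, 59 changed sign and 2 passed. None of the values that changed sign had passed the thresholds, and the cause was not tested. Depth (29654553 to 38179496 reads on genes) gave Nqo1 only 128 to 464 reads, and 3 CON libraries limit every comparison with CON.

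With median-of-ratios scaling, 1 member (Nqo1) had an unadjusted p below 0.05 in PQQ-L vs. CON (21.7% of all genes), and the log2FC was 0.035 for Gclc in PQQ-L vs. CON and 0.045 for Keap1, 0.064 for Gclc and 0.0080 for Gsr in PQQ-H vs. CON. With only the 2 groups compared, 4 members passed an unadjusted p of 0.05 for PQQ-L vs. CON (24.6% of all genes) and 2 for PQQ-H vs. PQQ-L (13.8%).

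The replicate numbers did not pair the samples (correlations of same-numbered libraries from -0.62 to 0.72), and the replicate block is given as an alternative only. With the replicate block, 0 members passed both thresholds, 2, 1 and 0 had an unadjusted p below 0.05 at the low dose, at the high dose and between the doses (8.07%, 6.27% and 4.28% of all genes), and 6 and 5 further NRF2 genes were lower in PQQ-L and PQQ-H vs. CON (5.41% and 5.44%). The log2FC was then 0.018 for Gclc in PQQ-L vs. CON, 0.0067 for Keap1 and 0.0061 for Gclc in PQQ-H vs. CON, and -0.035 for Nfe2l2 and -0.012 for Gclc in PQQ-H vs. PQQ-L.

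With the striatal covariate, the same counts were 1, 2 and 2 members (7.64%, 14.3% and 9.97% of all genes). In PQQ-L vs. CON, 5 further genes were lower (5.31% of all genes). The log2FC was 0.011 for Gclc and -0.031 for Slc7a11 in PQQ-L vs. CON, 0.0015 for Keap1, 0.0011 for Gclc and 0.012 for Gsr in PQQ-H vs. CON, and -0.20 for Nfe2l2, -0.21 for Nqo1, -0.010 for Gclc and -0.064 for Txnrd1 in PQQ-H vs. PQQ-L. Among the 8 striatum-low libraries the member counts were 1, 2 and 4 (4.57%, 10.5% and 12.7% of all genes), and 2 and 1 further genes were lower in PQQ-L and PQQ-H vs. CON (3.06% and 8.15%). The log2FC was 0.016 for Nfe2l2, 0.024 for Hmox1, 0.054 for Txnrd1 and -0.54 for Slc7a11 in PQQ-L vs. CON and 0.0094 for Txnrd1 in PQQ-H vs. CON. In PQQ-H vs. PQQ-L it was -0.28 for Nfe2l2, -0.049 for Keap1, -0.27 for Nqo1, -0.011 for Gclc, -0.045 for Txnrd1 and -0.015 for Gsr.

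With 1 library left out, the log2FC in PQQ-L vs. CON ranged from -0.21 to 0.014 for Hmox1, -1.23 to -0.78 for Nqo1, -0.037 to 0.014 for Gclc, -0.025 to 0.086 for Gclm and -0.23 to 0.50 for Slc7a11. In PQQ-H vs. CON it ranged from -0.072 to 0.026 for Keap1, -1.18 to -0.73 for Nqo1, -0.041 to 0.026 for Gclc and -0.19 to 0.069 for Gsr. In PQQ-H vs. PQQ-L it ranged from -0.088 to 0.15 for Nfe2l2, -0.060 to 0.22 for Nqo1, -0.036 to 0.032 for Gclc and -0.032 to 0.074 for Txnrd1. The further NRF2 genes lower in PQQ-L vs. CON numbered 5 to 20 (5.32% to 21.4% of all genes). In PQQ-H vs. CON they numbered 4 to 13 (5.39% to 11.1%).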
